A study of Mus musculus with 5 samples.

Results

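The genes examined were the core of the G1 control pathway: the D-type cyclins Ccnd1, Ccnd2 and Ccnd3, their kinase partners Cdk4 and Cdk6, the RB family Rb1, Rbl1 and Rbl2, and the E2F factors E2f1 and E2f3. These 10 genes of 25414 were chosen by symbol, and the FPKM values of all transcripts of a symbol were summed in each sample. FPKM, fragments per kilobase of transcript scaled to the number of mapped fragments, is a level per length, so levels of different genes can be set side by side. RNA-seq was available here for 2 NSC and 3 STO samples, all labelled as strain C57BL/6. NSCs were primary neural stem cells from mouse embryonic cortex, grown for 5 to 8 passages on poly-l-ornithine and laminin in neural basal medium with EGF and bFGF at 20 ng/ml each, heparin and 2% B27. STO cells, an established line of SIM mouse embryonic fibroblasts, had more than 30 passages in DMEM with 10% FBS. No mitotic inactivation is described for the sequenced STO cells, although such cells serve as feeders elsewhere in the study. Neither cell type carried a transgene or received a treatment according to the labels. Cell type, medium and passage changed together, so their parts in any difference cannot be told apart. Nothing in the sources says that replicates came from separate animals or cultures, and p-values measure the spread between these samples only.

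D-type cyclins are made in response to growth factors and activate CDK4 and CDK6. These kinases phosphorylate RB and its relatives p107, encoded by Rbl1, and p130, encoded by Rbl2. The phosphorylated proteins release E2F factors, which drive genes needed for DNA synthesis. In the embryonic cortex, cyclin D1 and cyclin D2 are known for their roles in dividing progenitors.

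Total FPKM per sample was 442905 and 446393 for NSCs and between 385485 and 399970 for STO cells, so these totals did not overlap between the cell types. All 19 transcripts of the 10 genes carried the status OK in every sample. The files used here give no read counts, so the depth behind a value is not known. The deposited confidence interval covers counting error and the assignment of fragments to transcripts, and its width is given here as precision only. For the highest transcript of each gene, the half-width of this interval was 0.712% to 10.2% of the FPKM value for 9 of the 10 genes in every sample. Lower transcripts of E2f1, E2f3 and Rbl1 had wider intervals. The labelled cell types were checked against their markers: 6 neural stem cell genes, among them Sox2, Olig2 and Nes, summed to 3811 to 4028 FPKM in NSCs, while 4 of the 6 were listed at 0 in all STO samples. Conversely, 8 fibroblast genes summed to 1466 to 1582 FPKM in STO cells against 10.8 to 11.2 in NSCs. NSCs also carried glial transcripts, with 3 astrocyte genes at 64.5 FPKM in sum and 3 oligodendrocyte genes at 114 to 117, against at most 0.219 and 1.14 in STO cells. Of 4 neuronal genes, summing to 14.3 to 16.1 FPKM in NSCs and 7.84 to 8.61 in STO cells, Tubb3 made up nearly all of the STO sum and averaged 8.69 FPKM in NSCs and 8.30 in STO cells. The other neuronal genes, Rbfox3, Dcx and Syt1, were at most 0.043 FPKM in STO cells. Microglial genes reached at most 0.377 FPKM, endothelial genes 0.503 and germ cell genes 1.89 in any sample. Whether what gave rise to these glial transcripts had a part in the levels below was not tested. In such bulk samples, fewer cells of a type and less RNA per cell cannot be told apart.

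The clearest pattern was that NSCs held far more D cyclin RNA than STO cells, almost all of it Ccnd1 and Ccnd2, whereas Cdk6 was under 1 FPKM in NSCs and 19.6 to 26.3 FPKM in STO cells. Cdk4 stood at a like level in both cell types. E2f1 was higher in STO cells, and the RB family differed in makeup but not in its summed level. In the fit of STO against NSC, 7 of the 10 genes passed an adjusted p of 0.05, with 3 higher and 4 lower in STO cells (limma on log2(FPKM + 1), Benjamini-Hochberg over 12292 genes). Of all genes tested 85.6% passed, 41.9% as higher and 43.7% as lower, so a call alone sets none of the 10 apart and the size of the difference carries more. An absolute difference of at least 1 on the log2(FPKM + 1) scale was called for 38.4% of all genes, 17.1% as higher and 21.3% as lower in STO cells. It was called for 4 of the 10, with Cdk6 and E2f1 higher and Ccnd1 and Ccnd2 lower. The median difference of the 10 was 0.024, against -0.023 over all genes tested. All 10 passed the filter of a mean of at least 1 FPKM in either cell type, but Cdk6 passed it through STO cells alone, so its inclusion rested on the group where it was high. Scaling every sample to the same FPKM sum moved the median of all genes from -0.023 to 0.14, a shift that matters for the small differences of Ccnd3, Cdk4 and E2f3.

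**Figure D1:**
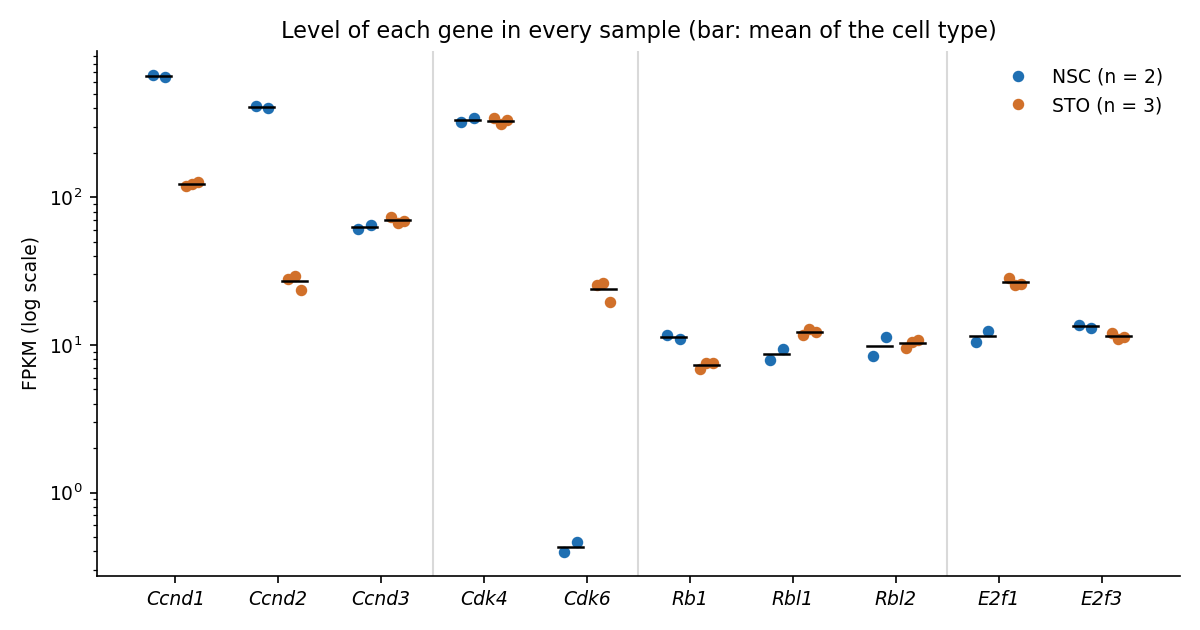
FPKM of the 10 genes (log axis) in the 2 NSC samples (blue) and the 3 STO samples (orange), with a bar at the mean of each cell type. Ccnd1 and Ccnd2 are higher in NSCs, Cdk6 and E2f1 are higher in STO cells, and Cdk4 stands at 311 to 347 FPKM in all 5 samples.

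Among the D cyclins, Ccnd1 (NM_007631, mm9, chromosome 7, 152115836 to 152125830) had the highest level. It was 677 and 649.8 FPKM in NSC replicates 1 and 2 and 119.8, 123 and 126 FPKM in STO replicates 1, 2 and 3. Both NSC samples thus lay above all STO samples by a wide margin, with means of 664 ± 19.4 FPKM (SD, n = 2) and 123 ± 3.07 FPKM (SD, n = 3). The ratio of the means was 5.40, and the difference was -2.42 ± 0.058 (SE) on the log2(FPKM + 1) scale, with an adjusted p of 1.12e-07 from limma. Ccnd1 ranked 99 among 25414 genes by mean FPKM in NSCs and 513 in STO cells. Cyclin D1 is the form most widely used by cells responding to mitogens.

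Ccnd2 (NM_009829, chromosome 6, 127075727 to 127101066) differed more. Its level was 418 and 403 FPKM in NSCs and 27.9, 29.5 and 23.7 FPKM in STO cells. Both NSC values lay far above all STO values, so the groups did not overlap. The means were 410.7 ± 10.6 FPKM (SD, n = 2) and 27.04 ± 3.01 FPKM (SD, n = 3), a ratio of 15.2. The difference of -3.88 ± 0.097 (SE) in log2(FPKM + 1) had an adjusted p of 1.35e-07 (limma), and 4.87% of all genes tested had a larger absolute difference. Ccnd2 fell from rank 145 in NSCs to rank 3087 in STO cells.

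Ccnd3, the third D cyclin, is broadly expressed and stood out by its evenness. It was listed at 60.6 and 65.4 FPKM in NSCs and at 73.1, 66.9 and 69.4 FPKM in STO cells. All STO values were above the NSC values, but only narrowly, and 89.9% of all genes tested had ranges that did not overlap. The difference was 0.15 in log2(FPKM + 1), with a 95% confidence interval of -0.010 to 0.30 and an adjusted p of 0.0712 (limma). With samples scaled to the same FPKM sum it was 0.32 (adjusted p = 0.00194), and with quantile normalization 0.22 (adjusted p = 0.0114), so the call on Ccnd3 depended on the scaling. All of its signal was assigned to NM_007632, which begins at position 47730416 of chromosome 17. The 2 transcripts that begin upstream, at 47642000, were listed at 0 in every sample.

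The makeup of the D cyclins differed between the cell types. Their summed level was 1156 and 1118 FPKM in NSCs and 220.9, 219 and 219 FPKM in STO cells, a ratio of 5.18 between the means. Ccnd1 took 58.3% ± 0.341 (SD, n = 2) of the sum in NSCs and 55.9% ± 1.62 (SD, n = 3) in STO cells. Ccnd2 took 36.1% ± 0.0835 (SD, n = 2) in NSCs against 12.3% ± 1.36 (SD, n = 3) in STO cells. The share of Ccnd3 was 5.55% ± 0.424 (SD, n = 2) in NSCs and 31.8% ± 1.30 (SD, n = 3) in STO cells. The second-ranked D cyclin was therefore Ccnd2 in NSCs and Ccnd3 in STO cells, in every sample. These shares are given as a description, because 2 against 3 samples cannot reach 0.05 in a permutation test.

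**Figure D2:**
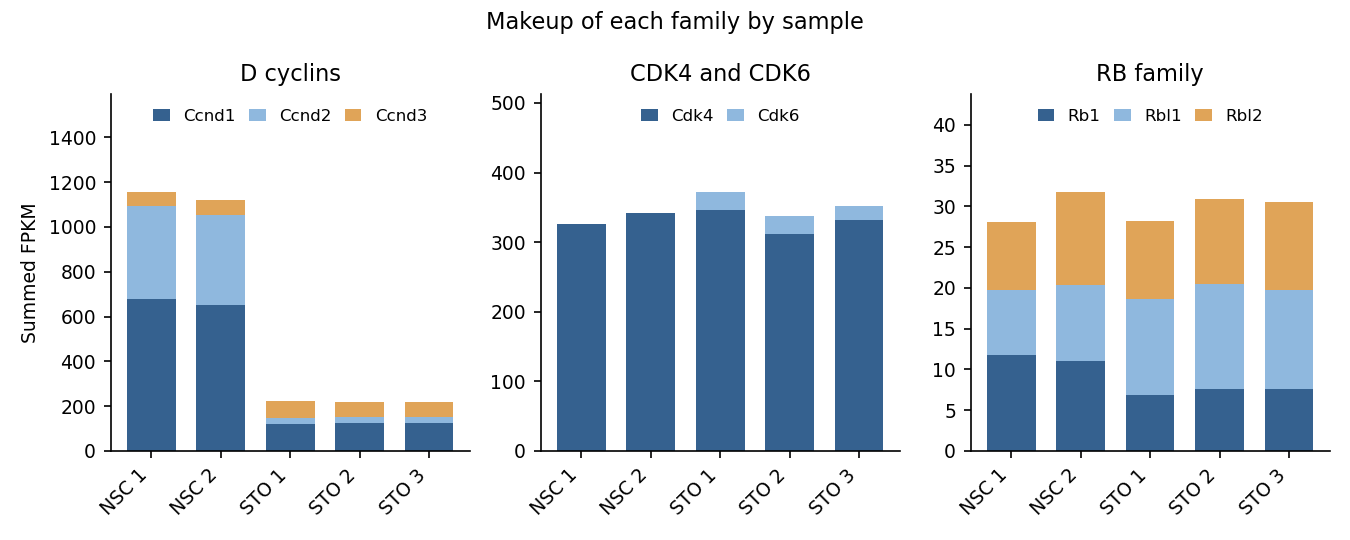
Stacked FPKM of the D cyclins, of Cdk4 with Cdk6, and of the RB family in each sample. The D cyclin sum is 1118 to 1156 FPKM in NSCs and 219 to 220.9 FPKM in STO cells, while the sums of the other families differ little, and each family has its own linear axis from 0.

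Cdk4 (NM_009870, chromosome 10, 126500591 to 126504344) encodes the main kinase partner of the D cyclins in most tissues. It was 326 and 342 FPKM in NSCs and 347, 311 and 332 FPKM in STO cells, so the groups overlapped. The difference was -0.017 in log2(FPKM + 1) with a 95% interval of -0.19 to 0.16 and an adjusted p of 0.829 (limma). Its sign was not stable: it was 0.16 with equal sums (adjusted p = 0.0526) and 0.16 with quantile normalization, where Cdk4 was called higher in STO cells (adjusted p = 0.0447).

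Cdk6, the close relative of Cdk4, gave the largest difference of the 10 genes. NM_009873 (chromosome 5, 3343893 to 3531005) was 0.397 and 0.461 FPKM in NSCs and 25.5, 26.3 and 19.6 FPKM in STO cells. The low NSC values were measured with an interval half-width of 15.0% to 16.7% of the value, against 2.30% to 2.48% in STO cells. STO cells had 55.5 times the NSC mean, and the difference of 4.11 ± 0.13 (SE) in log2(FPKM + 1) had an adjusted p of 3.85e-07 (limma). The pseudocount compresses so low a level, and with a pseudocount of 0.1 the difference was 5.49. Only 4.17% of all genes tested had a larger absolute difference. Cdk6 was among the genes tested through its STO level alone, so its adjusted p and this share are given as a description.

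Cdk6 contributed 0.128% ± 0.00906 (SD, n = 2) of the summed Cdk4 and Cdk6 level in NSCs and 6.74% ± 1.11 (SD, n = 3) in STO cells. Cdk4 thus remained the predominant kinase RNA in both, at 780 times the Cdk6 level in NSCs and 14.1 times in STO cells, as means over samples of the ratio of FPKM values. The ratio of summed D cyclin to summed kinase FPKM was 3.55 and 3.27 in NSCs and 0.593, 0.649 and 0.623 in STO cells. D cyclin RNA exceeded kinase RNA in both NSC samples and was below it in all STO samples.

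**Figure D3:**
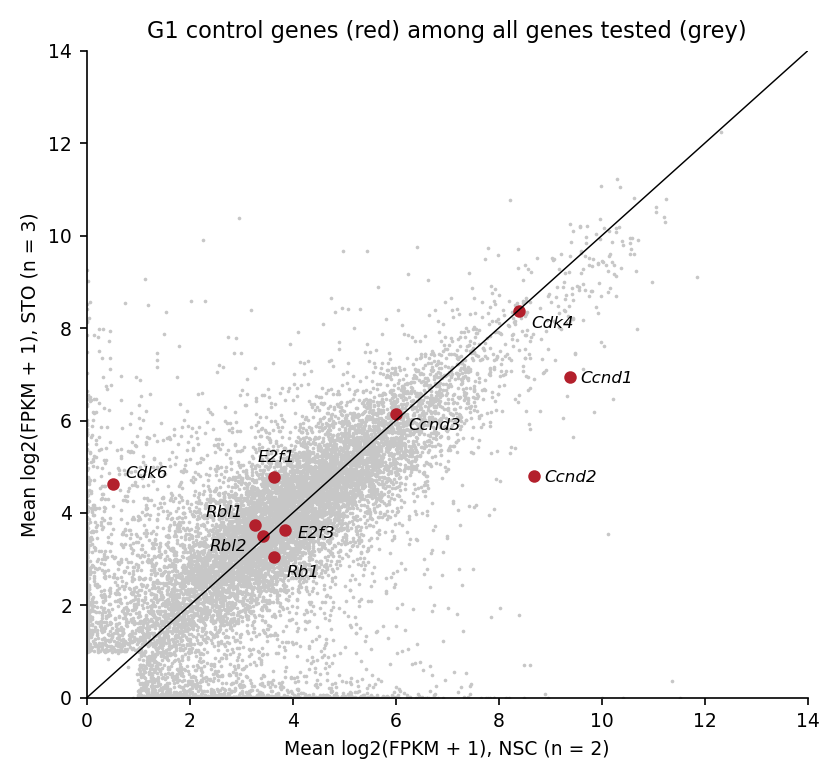
Mean log2(FPKM + 1) in STO cells against NSCs for all 12292 genes tested (grey) and the 10 genes (red), with the line of equal levels. Ccnd1 and Ccnd2 lie below the line at high NSC levels, Cdk6 lies far above it, and Cdk4, Ccnd3 and Rbl2 lie close to it.

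Pocket proteins of the RB family bind and restrain E2F factors. Rb1 (NM_009029, chromosome 14, 73595309 to 73725598) was 11.7 and 11.0 FPKM in NSCs and 6.84, 7.56 and 7.59 FPKM in STO cells. Both NSC values were higher than all STO values. The difference was -0.57 ± 0.066 (SE) in log2(FPKM + 1), with an adjusted p of 0.000232 (limma). The gene Lpar6 lies within the Rb1 locus, at 6.01 FPKM on average in NSCs and 5.44 in STO cells, and whether the authors' quantification used strand is not given in the sources used here.

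Rbl1, which encodes p107, ran the other way. It was 7.97 and 9.38 FPKM in NSCs and 11.7, 12.9 and 12.2 FPKM in STO cells, again without overlap. The difference was 0.46 ± 0.080 (SE) in log2(FPKM + 1), with an adjusted p of 0.00177 (limma). This call rested on the signal assigned to a short transcript, NM_001139516 (chromosome 2, 157000732 to 157030270). That transcript was listed at 0 in both NSC samples and at 2.52, 3.06 and 2.78 FPKM in STO cells. For the long transcript NM_011249 alone (156971630 to 157030270), the difference was 0.12 with an adjusted p of 0.225 in a limma fit over single transcripts. The split between the short and the long transcript comes from a model that divides shared fragments between transcripts.

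Rbl2, which encodes p130, the pocket protein best known from resting cells, was 8.36 and 11.4 FPKM in NSCs and 9.61, 10.4 and 10.8 FPKM in STO cells. All STO values lay between the 2 NSC values. The difference was 0.065 in log2(FPKM + 1), with a 95% interval of -0.24 to 0.37 and an adjusted p of 0.637 (limma), and it became -0.14 without NSC replicate 1. The Rbl2 locus (chromosome 8, 93593956 to 93647743) overlaps that of Aktip, which averaged 15.5 FPKM in NSCs and 7.08 in STO cells.

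Summed over the family, pocket protein RNA was 28.1 and 31.8 FPKM in NSCs and 28.2, 30.9 and 30.6 FPKM in STO cells, so the sums overlapped. Rb1 took 38.3% ± 5.06 (SD, n = 2) of the sum in NSCs and 24.5% ± 0.287 (SD, n = 3) in STO cells. Rbl1 took 29.0% ± 0.806 (SD, n = 2) in NSCs and 41.1% ± 1.06 (SD, n = 3) in STO cells. Rbl2 had 32.8% ± 4.25 (SD, n = 2) and 34.4% ± 0.815 (SD, n = 3). Rb1 was therefore the highest of the family in NSC replicate 1 and the lowest in every STO sample. In NSC replicate 2, Rb1 and Rbl2 were close, at 34.7% and 35.8% of the sum.

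E2f1 encodes an activating E2F factor that rises as cells enter S phase. Its level was 10.5 and 12.4 FPKM in NSCs and 28.3, 25.5 and 25.9 FPKM in STO cells, so every STO value was over 25 and every NSC value under 13. The ratio of the STO to the NSC mean was 2.31. The difference was 1.15 ± 0.085 (SE) in log2(FPKM + 1), with an adjusted p of 2.51e-05 (limma). The transcript NM_007891 (chromosome 2, 154385136 to 154395628) made up all of the signal in NSCs and 83.0% ± 3.77 (SD, n = 3) in STO cells. The rest was NM_001291105, which begins at a start inside the gene, and was 3.61, 4.64 and 5.19 FPKM in STO cells and listed at 0 in both NSC samples. This split also comes from the model that divides shared fragments.

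E2f3 encodes a further activating E2F factor, with a form made from an upstream start and another made from a start inside the gene. Summed, it was 13.7 and 13.0 FPKM in NSCs and 11.96, 11.1 and 11.4 FPKM in STO cells, so the groups were apart by a small gap. The difference was -0.20 ± 0.058 (SE) in log2(FPKM + 1), with an adjusted p of 0.0163 (limma). The call was lost without NSC replicate 1 (-0.17, adjusted p = 0.0868) and with equal sums (-0.043, adjusted p = 0.528). In NSCs, E2f1 was 0.767 and 0.957 times the level of E2f3, and in STO cells it was 2.36, 2.30 and 2.27 times that level.

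The upstream E2f3 transcript NM_010093 (chromosome 13, 29998444 to 30077932) was 13.7 and 9.58 FPKM in NSCs and 5.78, 6.59 and 6.64 FPKM in STO cells. NM_001289920 and NM_001359994, which both begin at the inner start (30076260), were listed at 0 in NSC replicate 1. They were 1.85 and 1.56 FPKM in NSC replicate 2, and their values in STO cells ranged from 2.28 to 2.91 and from 1.69 to 3.91 FPKM. The upstream form thus held 100% and 73.8% of the E2f3 signal in the NSC samples and 48.3% to 59.6% in STO cells. Such splits come from a model that divides shared fragments between transcripts. In a limma fit over single transcripts, NM_010093 differed by -0.77 (adjusted p = 0.00997), although its 2 NSC values were further apart than those of the summed gene.

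**Figure D4:**
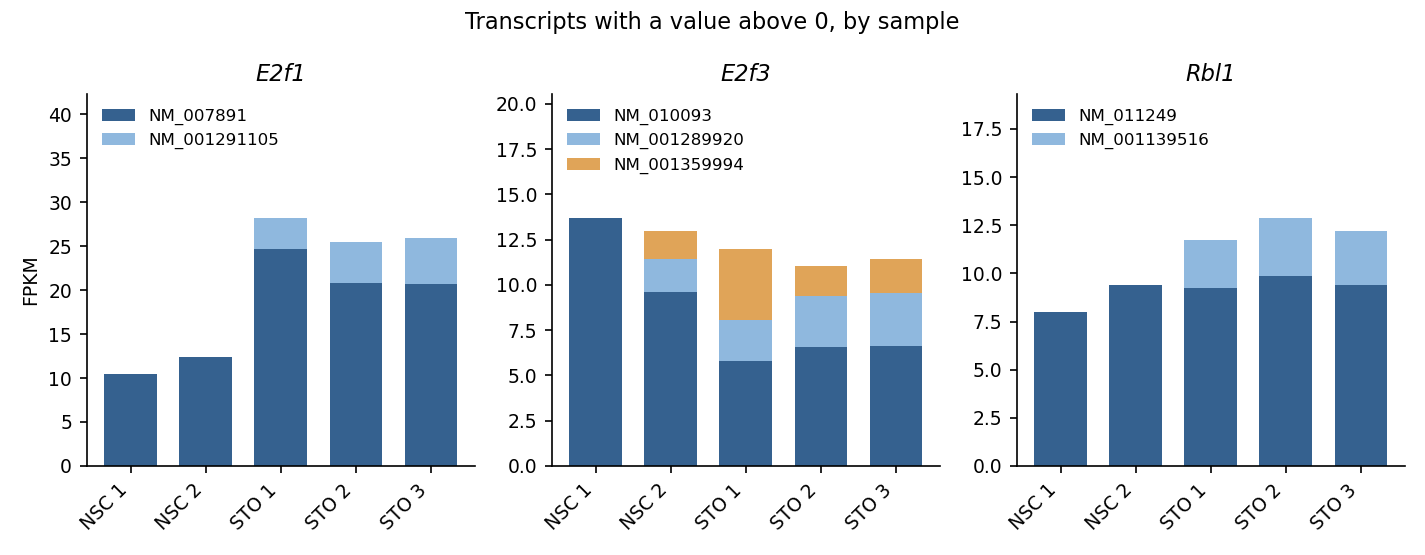
FPKM of each E2f1, E2f3 and Rbl1 transcript with a value above 0, stacked by sample on linear axes from 0. The second transcripts of E2f1 and Rbl1 have a value in all 3 STO samples and are listed at 0 in both NSC samples. The inner-start transcripts of E2f3 are listed at 0 in NSC replicate 1.

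Promoter sequence is shown for Rbl1 and E2f3, which held a match to the E2F site, and for the inner E2f3 start and Cdk6 beside them. Windows from 250 bases before to 50 bases after each start were taken from RefSeq on GRCm38.p6, and 7 of the 10 genes had an entry, Ccnd1, Ccnd2 and Rb1 being without. They were searched on both strands for 4 forms of the E2F site, TTTCCCGC, TTTCGCGC, TTTGCCGC and TTTGGCGC, of which forms on opposite strands can overlap. A match was found for 2 of the 7 genes, Rbl1 and, at its upstream start, E2f3. By comparison, 2.6% of all genes with an entry and 2.26% of all 32851 windows held one. Ccnd3, Cdk4, Rbl2 and E2f1 had an entry without a match. Rbl1 held TTTCGCGC 18 to 11 bases before its start, and E2f3 held TTTCCCGC on the opposite strand 11 to 4 bases before the upstream start. The inner E2f3 start, 1672 bases downstream, and Cdk6, with the largest difference, held none of these letters. The 100 bases before each start read as follows, 5′ to 3′ in the direction of the gene, with the matched letters in capitals.
Rbl1 (chr2:157204535-157204634, minus strand): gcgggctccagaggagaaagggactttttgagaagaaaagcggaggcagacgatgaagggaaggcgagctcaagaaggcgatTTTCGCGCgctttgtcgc
E2f3, upstream start (chr13:29986064-29986163, minus strand): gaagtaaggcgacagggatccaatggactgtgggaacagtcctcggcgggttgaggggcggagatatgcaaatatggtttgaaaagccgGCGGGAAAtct
E2f3, inner start (chr13:29984392-29984491, minus strand): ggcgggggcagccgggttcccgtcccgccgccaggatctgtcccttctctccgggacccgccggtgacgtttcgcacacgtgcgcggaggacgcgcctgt
Cdk6 (chr5:3343793-3343892, plus strand): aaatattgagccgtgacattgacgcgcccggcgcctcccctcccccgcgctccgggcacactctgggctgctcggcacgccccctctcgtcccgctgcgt
The stretches before the inner E2f3 start and Cdk6 were richer in G and C, at 74.0% and 71.0%, than those of Rbl1 and the upstream E2f3 start, at 56.0% and 54.0%. Matches of letters are a description and do not show that a factor bound there. Rbl1 and E2f3, the 2 genes with a match, differed in opposite directions in the main fit, with calls that were lost under alternatives given above. Whether these sites had a part in the differences was not tested.

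Ordered by level in NSCs, Ccnd1, Ccnd2, Cdk4 and Ccnd3 came first and were separated from each other in both replicates. E2f3 followed. The ranges of E2f1 and Rb1, of Rb1 and Rbl2, and of Rbl2 and Rbl1 then overlapped, and Cdk6 came last. In STO cells the order was Cdk4, Ccnd1 and Ccnd3, each apart from the next, and then Ccnd2, E2f1 and Cdk6, whose neighbouring ranges overlapped. Rbl1 and E2f3 overlapped as well, Rbl2 was below them, and Rb1 was lowest.

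The pattern over the 5 samples was compared with that of every other gene tested by the Euclidean distance between values of log2(FPKM + 1) centred on their mean. Closest to Ccnd1 were A030001D20Rik, Marchf4 and Lrp4, at distances of 0.044, 0.052 and 0.053. Closest to Ccnd2 were Rcan2, Cracd and Adam12, at 0.17, 0.19 and 0.21. These genes share the size of the difference on the log2(FPKM + 1) scale, but neither the level nor the ratio of FPKM between the cell types. Rcan2 averaged 16.1 FPKM in NSCs and 0.139 in STO cells, and A030001D20Rik averaged 4.35 and 0.0177. The pseudocount compresses differences of such low levels, so a small distance does not mean a like ratio.

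Other genes of the pathway were described from 8 lists holding 57 genes, of which 56 were tested and 47 called, 29 as higher and 18 as lower in STO cells. This share of 83.9% was near the 85.6% of all genes tested. By direction, 41.9% of all genes tested were called higher and 43.7% lower. The exception to testing was Ccna1, a cyclin A form known from the germ line, which was 0.665 and 0.659 FPKM in NSCs and listed at 0 in STO cells.

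Inhibitors of the CDKs went in both directions. Of 7 INK4 and CIP/KIP genes, 5 were called lower and 1 higher in STO cells, with a median difference of -1.26 against -0.023 over all genes, of which 43.7% were called lower and 41.9% higher. INK4 proteins bind CDK4 and CDK6 directly. Cdkn2b, an INK4 gene, was 68.7 and 63.8 FPKM in NSCs and 13.7, 11.4 and 13.0 FPKM in STO cells, a difference of -2.30 ± 0.085 (SE, adjusted p = 8.68e-07, limma). Cdkn2c, also an INK4 gene, was higher in STO cells, at 80.2 ± 1.30 FPKM (SD, n = 3) against 49.6 ± 1.98 FPKM (SD, n = 2). Cdkn2a, which encodes p16INK4a and p19ARF, averaged 39.8 FPKM in NSCs and 36.3 in STO cells and was not called (adjusted p = 0.149), with a difference of -0.13 that turned to 0.041 with equal sums.

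Of the CIP/KIP genes, Cdkn1c was 14.2 and 15.1 FPKM in NSCs and listed at 0 in all STO samples, so it passed the filter through NSCs alone. Cdkn1b, which encodes p27, fell by 0.70 on the log2(FPKM + 1) scale in STO cells, from 51.2 to 31.1 FPKM on average (adjusted p = 9.20e-05, limma). The inhibitors summed to 485 to 505 FPKM in NSCs and 267 to 280.3 FPKM in STO cells. Cdkn1a, which encodes p21, carried most of that gap, at 255.6 FPKM on average in NSCs and 105.9 in STO cells (-1.26 ± 0.062, SE).

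**Figure D5:**
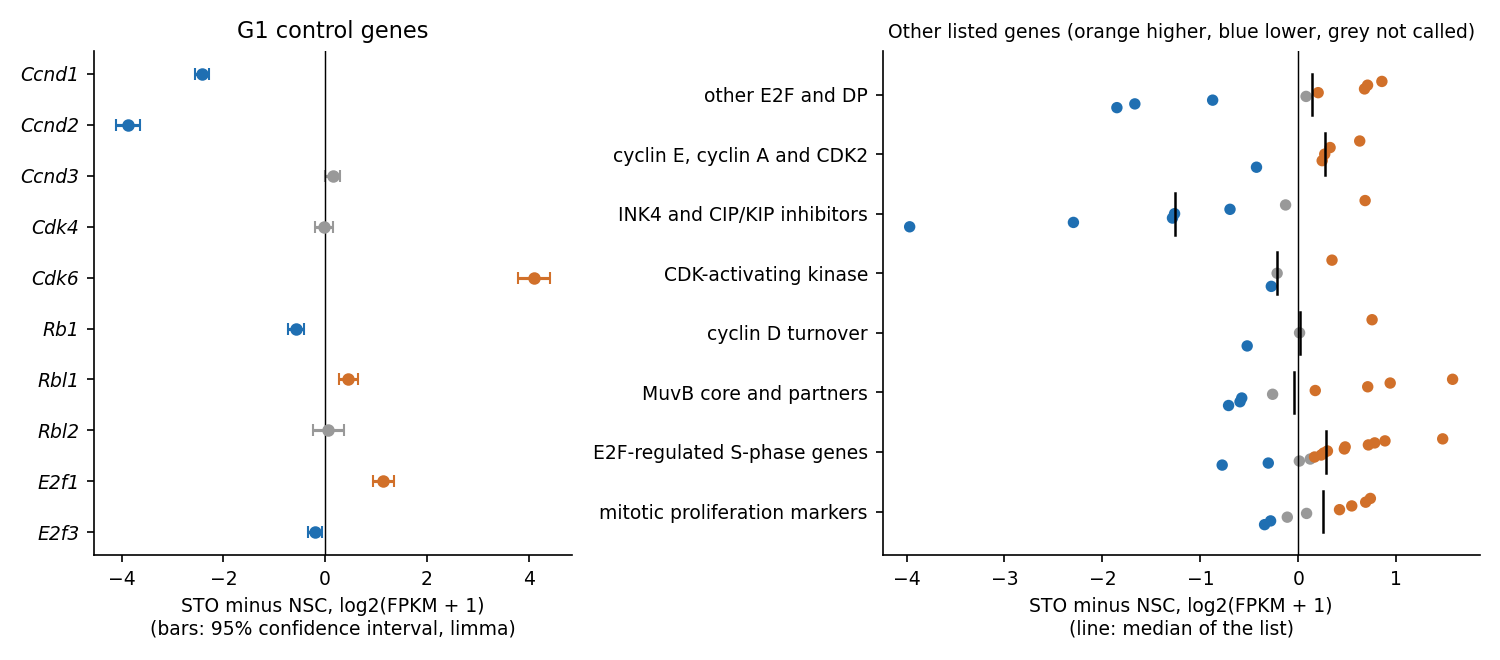
Left, difference of STO minus NSC in log2(FPKM + 1) for the 10 genes with 95% confidence intervals from limma. Right, the same difference for 56 other genes of the pathway by list with the median of each list as a line, where orange is called higher in STO cells, blue lower and grey not called. The list of inhibitors has a median of -1.26, and the other medians lie between -0.22 and 0.28.

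The rest of the E2F and DP family split in both directions, with 4 of 8 genes called higher and 3 lower. Of all genes tested, 41.9% were called higher and 43.7% lower. E2f7, an E2F repressor, rose to 10.6 FPKM in STO cells from 5.42 in NSCs (0.85 ± 0.056, SE), and E2f4, which partners with pocket proteins, to 39.6 from 23.9 FPKM (0.71 ± 0.072, SE). E2f2, an activating E2F factor like E2f1, was lower in STO cells by contrast, at 0.819 against 5.56 FPKM (-1.85 ± 0.076, SE), and it passed the filter through NSCs alone. E2f6, a repressor that does not bind pocket proteins, was lower as well (6.40 against 22.6 FPKM). Tfdp1, the DP partner of E2F factors, averaged 86.2 FPKM in NSCs and 91.2 in STO cells. Its difference of 0.079 was not called (adjusted p = 0.21), although with equal sums it was 0.25 and called (adjusted p = 0.00676, limma).

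Genes acting after the D cyclins at the start of S phase differed by smaller amounts. Cdc25a, a phosphatase that activates CDK2, was higher in STO cells by 0.63 ± 0.060 (SE, adjusted p = 9.23e-05, limma). Cdk2 averaged 18.0 FPKM in NSCs and 22.8 in STO cells, a call (adjusted p = 0.00615) that was lost without NSC replicate 1 (adjusted p = 0.0768). Ccne1 was 17.7 and 21.6 FPKM on average in NSCs and STO cells and Ccne2 10.5 and 7.55 FPKM. Both cyclin E genes were called, in opposite directions, and both calls were lost without NSC replicate 1 (0.24, adjusted p = 0.106, and -0.32, adjusted p = 0.0705, limma). That of Ccne1 was also lost without NSC replicate 2 (0.29, adjusted p = 0.0718, limma).

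Genes that act on the cyclin D complexes went in both directions. Cdk7, the catalytic subunit of the CDK-activating kinase, was higher in STO cells by 0.34 (adjusted p = 0.000864), and its cyclin Ccnh was lower by a difference of -0.28 (adjusted p = 0.00158), a call that was lost with equal sums (-0.11, adjusted p = 0.0652, limma). Of 3 genes for the turnover of D cyclins, the F-box gene Fbxo4 was higher (4.57 against 2.30 FPKM) and Fbxo31 lower (4.68 against 7.16 FPKM) in STO cells. Ambra1, whose product directs cyclin D to degradation, averaged 12.2 and 12.3 FPKM in NSCs and STO cells, with an interval of the difference from -0.11 to 0.13. It was called higher with equal sums (0.18, adjusted p = 0.0218) and had the opposite sign with quantile normalization (-0.032).

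The MuvB core joins p107 and p130 in resting cells and the factors B-MYB and FOXM1 in dividing cells. Of 8 genes of this group, 4 were called higher and 3 lower in STO cells. The called share, 87.5%, was thus close to the background of 85.6%. That background is made up of 41.9% of tested genes with a rise and 43.7% with a fall. Lin54, the DNA-binding subunit, was 19.8 FPKM in STO cells and 5.97 in NSCs (1.58 ± 0.072, SE), and Foxm1 was 59.3 against 30.6 FPKM (0.94 ± 0.070, SE). Rbbp4 and Lin37 were lower in STO cells (-0.71 and -0.60). Mybl2, which encodes B-MYB, differed by 0.17 (adjusted p = 0.0188), and this call was lost with the replicate number as a block (adjusted p = 0.0567), with quantile normalization (adjusted p = 0.0543) and without NSC replicate 1 (adjusted p = 0.0515) or STO replicate 2 (adjusted p = 0.0554).

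Of 14 S-phase genes known as E2F targets, 10 were called higher and 2 lower in STO cells, with a median of 0.28, against 41.9% and 43.7% of all genes. Among the 10, the call of Mcm6 was lost with the replicate number as a block and without any one of the 5 samples, that of Mcm5 under the block and without NSC replicate 1, and that of Cdt1 without NSC replicate 1 or STO replicate 1. Of the 12 with a promoter entry, 6 held one of the E2F forms, against 2.6% of all genes with an entry, on a list made up of known E2F targets. Tyms (27.7 against 9.32 FPKM) and Tk1 (70.1 against 37.5 FPKM), both enzymes of thymidylate supply, had the largest rises. Pcna, the sliding clamp of DNA polymerase, was lower in STO cells, at 132 against 227 FPKM (-0.78 ± 0.064, SE). Rrm2, a subunit of ribonucleotide reductase, was lower as well (-0.31, adjusted p = 0.0036), but was not called with equal sums (-0.13, adjusted p = 0.0587). Mcm2 averaged 56.9 and 57.3 FPKM and was not called, except with equal sums (0.18, adjusted p = 0.0244).

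Mitotic genes were expressed in both cultures. Mki67, the gene of the Ki-67 antigen, was 47.9 and 55.4 FPKM in NSCs and 80.3, 85.6 and 84.8 FPKM in STO cells, and Bub1, a spindle checkpoint kinase, was 10.0 and 17.4 FPKM on average. Ccnb1 was lower in STO cells (-0.34, adjusted p = 0.000778), as was Plk1 (-0.28, adjusted p = 0.00695), whose call was lost with equal sums (-0.11, adjusted p = 0.112) and without NSC replicate 2 (-0.22, adjusted p = 0.0555). Of 8 mitotic genes, 4 were called higher and 2 lower, with a median of 0.25. Of all genes tested, 41.9% were called higher and 43.7% lower, with a median of -0.023. For comparison with the D cyclin sums of 1118 to 1156 and 219 to 220.9 FPKM, the 8 mitotic genes summed to 419 to 433 FPKM in NSCs and 486 to 512 FPKM in STO cells.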

How the data were processed

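The authors prepared stranded mRNA libraries, aligned trimmed paired reads to mm9 with Hisat2, and quantified RefSeq transcripts with Cufflinks 2.2.1 (the version in the submitters' processing notes). The deposited FPKM values, with interval bounds in FPKM, cover 40201 transcripts per sample, and no counts were used. Symbols came from a RefSeq table for GRCm38.p6, which matched 99.4% of transcripts. Coordinates are mm9, counted from 1, except for promoters. Where loci overlapped, transcripts of a symbol were added up. STO and NSC samples were compared with limma 3.58.1 in R 4.3.3 (lmFit, trended eBayes) after taking log2(FPKM + 1), for genes with a mean of at least 1 FPKM in either cell type, with Benjamini-Hochberg adjustment. This scale understates differences of low genes. The fit was tested on simulated data. The genes and lists were chosen with earlier results of these data known. All 10 genes are named. From each list, up to 2 called genes with the largest rise and 2 with the largest fall are named, plus 12 fixed genes. Ccna1, Cdkn1a, Ambra1, Mcm2, Mcm5, Mcm6 and Cdt1 were named after their values were seen.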

Additional observations from a re-analysis of the deposited data

How the results depend on the processing

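Of 130 comparisons of the 10 genes under alternatives, 120 kept direction and side of the threshold, and of 671 for the other listed genes 629 did. Part of this was fixed in advance. Changes to the filter or the trend left every difference as it was and could move only its p-value. The fit over single transcripts repeated the difference of genes with a single transcript with signal. The block repeated the differences found without STO replicate 3. Cdk4 reversed with equal sums (0.16), with quantile normalization (0.16), and without NSC replicate 2 (0.018) or STO replicate 2 (0.024), within -0.053 to 0.024 when single replicates were left out. Also reversed were Rbl2 without NSC replicate 1 (-0.14, and up to 0.27 without NSC replicate 2), Cdkn2a with equal sums (0.041), Ambra1 with quantile normalization (-0.032) and without NSC replicate 1 (-0.0011, and up to 0.026), Mcm2 without NSC replicate 1 (-0.068, and up to 0.088) and Aurkb with equal sums (0.058). None of these had been called. Quantile normalization called 5 of the 10 genes higher, adding Ccnd3 and Cdk4, against 5445 of all 12292 genes tested. Requiring an absolute difference of at least 1 left 2 of the 10 genes lower, 2 of the other listed genes higher and 6 lower, and 2103 of all genes higher and 2617 lower, through the stricter rule itself. Leaving out any single STO replicate gave 4 of the 10 genes lower and 3 higher. Of all genes tested, 5190 to 5253 were then lower and 4973 to 5065 higher. Without an NSC replicate, the lone NSC sample was assumed to vary like the STO samples, so no such counts are given. With equal sums, 55.7% of calls were higher in STO cells, against 48.9%.

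Using the highest transcript alone, shares in STO cells were 27.1% for Rb1, 35.1% for Rbl1 and 37.9% for Rbl2. Using fragments implied by the intervals, which are not divided by length, shares in NSCs were 2.84% for Ccnd1, 95.3% for Ccnd2, 1.83% for Ccnd3, 7.30% for Cdk6, 49.1% for Rb1, 24.4% for Rbl1 and 26.4% for Rbl2. In STO cells they were 26.0%, 55.3%, 18.7%, 78.4%, 34.6%, 33.1% and 32.4% in the same order. For Ccnd1, 2285 and 2288 implied fragments at 677 and 649.8 FPKM stood against 1907 to 2053 at 119.8 to 126 FPKM, so these numbers did not scale with the level and give the width of the intervals only.

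Both groups have replicates 1 and 2 in the labels, and no source pairs them. Deviations from the group means correlated at 0.0075 and 0.061 for the same number and at -0.061 to 0.050 for different numbers. The deviations of the 2 NSC samples are mirror images, so their correlations with any STO sample differ only in sign. These values therefore cannot show whether replicates were paired. With the replicate number as a block, 4994 of all genes were called higher and 5252 lower. The counts for the 10 genes stayed at 3 and 4, and the calls of Mybl2, Mnat1, Mcm5 and Mcm6 changed. Replicate 3 exists in STO cells only, so the block gave the same differences as leaving out STO replicate 3, such as -2.44 for Ccnd1. The cause of changes under other alternatives was not tested. Intervals of 15.0% to 16.7% limit Cdk6 in NSCs. The short Rbl1 transcript NM_001139516 had 80.5 to 131 implied fragments in STO cells, below the 144 and 178 of Cdk6 in NSCs. Its intervals were therefore wider still, and those of the lower E2f1 and E2f3 transcripts were wider than those of the highest.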
